A study of Mus musculus with 11 samples.

Results

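The 9 genes described here encode light-response machinery of rod photoreceptors, and they were taken by symbol from the 47069 gene rows of the count files. They comprise the 3 subunits of the rod G protein transducin (Gnat1, Gnb1 and Gngt1), the 3 subunits of the rod cGMP phosphodiesterase (Pde6a, Pde6b and Pde6g), the 2 subunits of the rod cyclic nucleotide-gated channel (Cnga1 and Cngb1), and rod arrestin (Sag). All 9 passed the filter on low counts, as did 18188 genes in all. A pseudogene lies within the bounds of 3 members (Gm13171 in Gnb1, Rps2-ps10 in Pde6a and Gm5297 in Cnga1), sharing no exon with them and holding 2, 143 and 441 counts over all libraries.

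Retinal RNA was sequenced from C57BL/6 mice labelled wild type or Brn3b-Kir2.1, in 11 libraries: 2 wild-type and 3 Kir2.1 libraries at postnatal day 4 (P4), and 3 of each genotype at postnatal day 8 (P8). Kir2.1 mice carry a transgene of human Kir2.1 joined to eYFP, a fluorescent reporter; Kir2.1 is a potassium channel that holds neurons near rest. A CAG promoter drives the transgene once Brn3b-cre, active in retinal ganglion cells, has removed a floxed STOP cassette. The title asks about perinatal retinal activity and the wiring of visual axons, and rods are not the cells in which Brn3b-cre acts. The labels disagree on 3 points: the later age is P8 in the age field and P11 in the protocol, the control is wild type in the genotype field and Brn3b-cre in the protocol, and the source field names retinal ganglion cells where the tissue field says retina and the protocol describes no sorting. Labels do not say whether replicates came from separate animals, so the p-values measure the spread between these libraries, which may be technical.

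In the dark, rods hold their cyclic nucleotide-gated channels open with cGMP. Light leads to the activation of transducin, whose alpha subunit relieves the inhibition of the phosphodiesterase, so that cGMP falls and the channels close. Arrestin takes part in ending the signal. Rods are the most numerous cells of the mouse retina, and many are born and begin to mature around and after birth, under the transcription factors Crx, Nrl and Nr2e3.

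Gene counts per library ran from 9362215 to 12478838, and counts of a member in a library from 12 (Pde6a) to 19545 (Gnb1). Values below are counts-per-million values (CPM) scaled by the trimmed mean of M values (TMM), unless another scale is named. The mouse Kcnj2 row, the gene for Kir2.1, held 5.88 to 10.7 CPM of total gene counts in wild-type P4, 2.56 to 6.23 in Kir2.1 P4, 3.82 to 17.0 in wild-type P8 and 5.02 to 16.7 in Kir2.1 P8; as the transgene is a human cDNA, this row does not check the labels directly. Ganglion cell markers (13 genes, none at 0) summed to 1992 and 1372 CPM in wild-type P4 and to 1021, 443 and 1082 CPM in Kir2.1 P4, with no overlap, and to 546 to 691 CPM in wild-type P8 and 523 to 646 in Kir2.1 P8. Pigment epithelium markers summed to 4.58 to 7.78 CPM in 10 libraries and 31.6 in Kir2.1 P8 replicate 2. That library also had a count for 31325 genes, against 22609 to 24591 in the other libraries.

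A pair of wild-type libraries stood apart from the rest of their groups. Wild-type P4 replicate 2 held the highest level of the 5 P4 libraries for 9 of 9 members, a position it had for 21.7% of all 23816 genes with a value. Its dividing-cell markers summed to 1253 CPM against 2687 to 3338 CPM in the other 4 P4 libraries, and its bipolar cell markers to 498 against 223 to 314. Wild-type P8 replicate 1 was the lowest of the 6 P8 libraries for 9 of 9 members and for 21.7% of all genes. Its dividing-cell sum of 161 CPM lay within that of the other P8 libraries (158 to 221), while its bipolar sum was the lowest at P8 (587 against 1087 to 1894) and its amacrine and horizontal cell sum the highest (3043 against 884 to 2095). Counts and medians of the age and genotype comparisons are given with and without these libraries, for the members and for the rod and cone gene lists described after them.

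Sequence upstream of the start, overlapping no annotated exon, is shown for 4 members. A link between motifs of the rod transcription factors and the change with age was not tested. RefSeq (GRCm38.p6) gave a start for 6 of the 9 members, and the 250 bases before it were searched on both strands for TAATCC, the core recognised by Crx and Otx2, TGCTGA, the core of the element recognised by Nrl, and AAGTCA, a half-site of nuclear receptors such as Nr2e3. Capitals mark a match, and GGATTA is TAATCC on the other strand. The windows are Sag at chr1:87803430-87803679 (plus strand), Cngb1 at chr8:95306586-95306835 (minus strand), Pde6b at chr5:108388123-108388372 (plus strand) and Gnb1 at chr4:155491111-155491360 (plus strand), each written 5′ to 3′ in the direction of the gene and ending at the base before the start.
Sag: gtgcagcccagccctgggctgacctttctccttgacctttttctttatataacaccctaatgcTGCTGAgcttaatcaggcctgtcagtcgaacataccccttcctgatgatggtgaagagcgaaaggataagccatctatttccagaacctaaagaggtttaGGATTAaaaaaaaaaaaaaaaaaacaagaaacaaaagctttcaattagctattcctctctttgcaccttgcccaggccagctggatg
Cngb1: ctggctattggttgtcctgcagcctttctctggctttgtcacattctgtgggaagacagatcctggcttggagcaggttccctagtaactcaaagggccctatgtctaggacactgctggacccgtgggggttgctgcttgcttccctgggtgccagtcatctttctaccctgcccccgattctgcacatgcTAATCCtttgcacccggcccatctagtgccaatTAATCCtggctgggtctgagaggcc
Pde6b: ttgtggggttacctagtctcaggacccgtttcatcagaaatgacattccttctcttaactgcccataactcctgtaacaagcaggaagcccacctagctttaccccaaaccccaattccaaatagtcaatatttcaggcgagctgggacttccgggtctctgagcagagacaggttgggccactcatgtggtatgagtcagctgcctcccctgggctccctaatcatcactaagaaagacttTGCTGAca
Gnb1: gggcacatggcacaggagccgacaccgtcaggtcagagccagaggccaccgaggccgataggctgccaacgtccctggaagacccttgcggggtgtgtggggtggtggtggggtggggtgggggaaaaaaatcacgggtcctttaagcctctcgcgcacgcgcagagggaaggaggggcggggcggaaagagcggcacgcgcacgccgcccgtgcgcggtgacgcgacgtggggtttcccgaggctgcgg

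Sag had TAATCC on the reverse strand 87 bases before the start and TGCTGA 187 bases before it. Cngb1 had 2 copies of TAATCC, at 58 and 25 bases, and Pde6b had TGCTGA at 8 bases. Gngt1 and Cnga1 each had 1 TAATCC, at 44 and 228 bases, in windows that overlap annotated exons and are not printed. TAATCC was thus in 4 of 6 member windows and in 6.25% of 32817 windows of the same length, TGCTGA in 2 of 6 and 16.1%, and AAGTCA in 0 of 6 and 13.1%. Gnb1, whose product also serves many other G proteins, had none of the 3. A match describes letters in the window and not a bound site.

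Per kilobase of exon, Gnb1 had the highest level of the 9 members in each of the 4 groups. In Kir2.1 P8 the mean levels per kilobase were 367 ± 26.6 CPM for Gnb1 (SD, n = 3), 149 ± 10.4 for Sag, 147 ± 15.8 for Pde6b, 105 ± 8.87 for Pde6g, 68.7 ± 2.41 for Gngt1, 39.0 ± 2.001 for Cngb1, 33.1 ± 5.33 for Pde6a, 28.2 ± 0.856 for Cnga1 and 23.9 ± 7.42 for Gnat1. Neighbours in this order overlapped between libraries for Sag and Pde6b, for Cngb1 and Pde6a, for Pde6a and Cnga1, and for Cnga1 and Gnat1. Kir2.1 P4 had a different order below Sag, with Pde6g (13.6 ± 4.54 CPM per kilobase) ahead of Pde6b (9.16 ± 2.66) and Pde6a last (0.769 ± 0.216), but both pairs of neighbours there, Pde6g and Pde6b, and Cnga1 and Pde6a, overlapped between libraries. In both wild-type groups every pair of neighbours overlapped except Gnb1 and Sag.

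**Figure D1:**
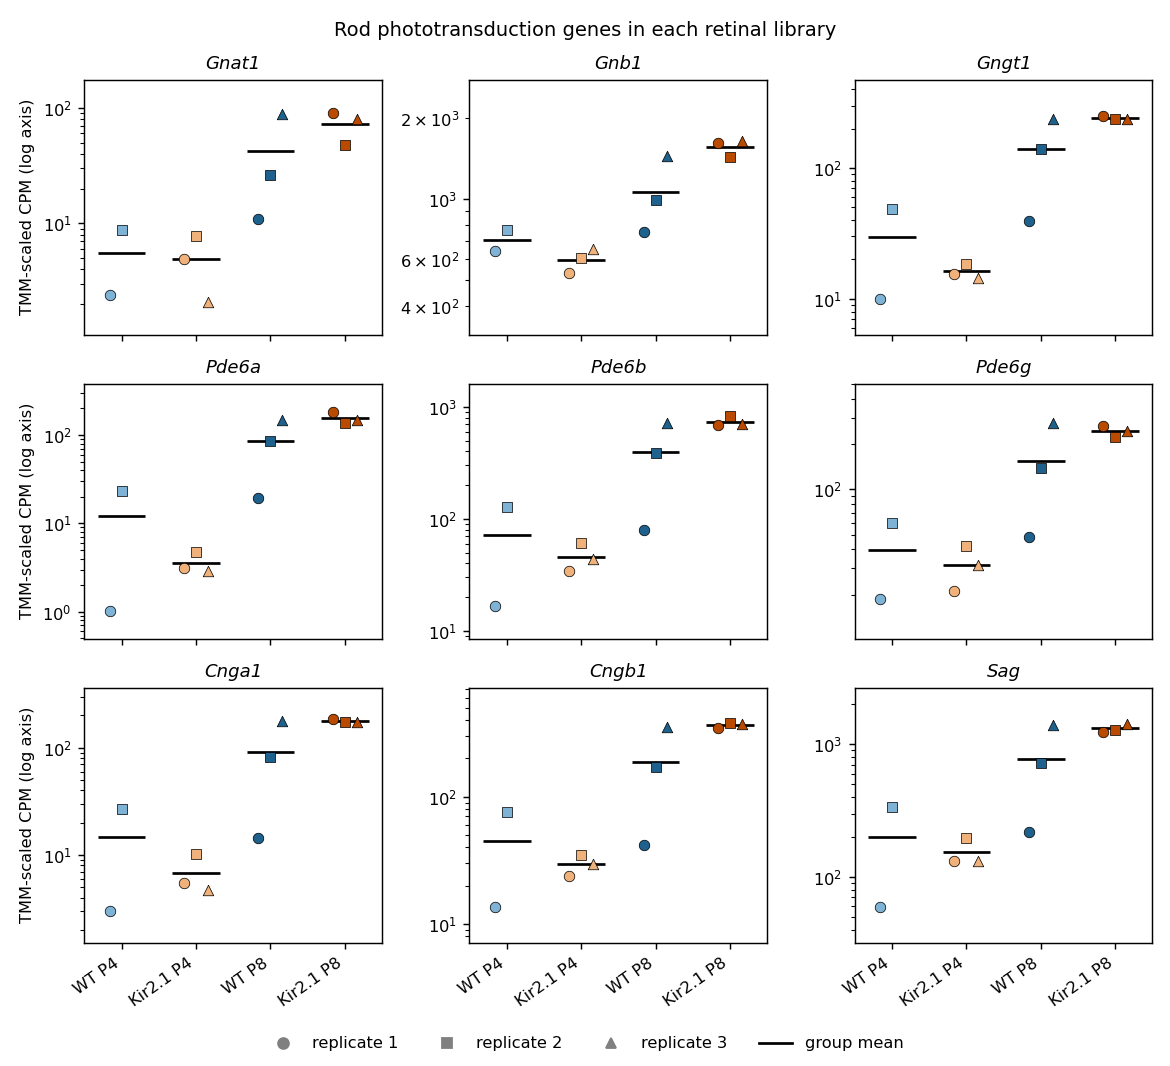
TMM-scaled CPM (log axis, its range set for each panel) of the 9 members in each of the 11 libraries, by group; symbols give the replicate number and black lines the group mean. Wild-type P4 replicate 2 is the highest P4 library and wild-type P8 replicate 1 the lowest P8 library in all 9 panels, while the 3 Kir2.1 P8 libraries lie close together.

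Which members rise as rods mature was asked by comparing P8 with P4 within each genotype. In Kir2.1 retinas all 9 members rose, by 2.63-fold (Gnb1) to 42.7-fold (Pde6a), with adjusted p from 0.000704 to 0.00619 in edgeR's quasi-likelihood test. Over all genes tested, 7.93% rose at this threshold, and 9 of 9 members had no overlap between the ages, as 19.4% of genes did. The members' median log2 change was 3.85 and that of all genes 0.00. In bulk retina, more rods and more RNA per rod cannot be told apart. Dividing-cell markers (10 of 10 measured) summed to 2687 to 3338 CPM in Kir2.1 P4 and 176 to 221 in Kir2.1 P8, and bipolar markers to 247 to 314 and 1180 to 1556, with at most 2 of 10 at 0 in a P4 library; their part in the members' change was not tested.

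All 3 subunits of transducin rose in Kir2.1, with the smallest change in Gnb1. Gnat1 (ENSMUSG00000034837, chr9:107674474-107679712, minus strand), the rod-specific alpha subunit that carries GTP, was at 4.93, 7.83 and 2.1 CPM in Kir2.1 P4 replicates 1 to 3 and at 90.5, 47.2 and 79.4 CPM in Kir2.1 P8. The ages did not overlap, and the log2 change was 3.85 ± 0.74 (SE; edgeR adjusted p = 0.00424). Wild-type levels were 2.39 and 8.71 CPM at P4 and 10.9, 26.2 and 88.7 CPM at P8, again without overlap, but the log2 change of 2.92 ± 0.84 did not pass (edgeR adjusted p = 0.0761).

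Gngt1 (ENSMUSG00000029663, chr6:3993792-3997436, plus strand), the rod gamma subunit that anchors transducin to the disc membrane, was at 15.5, 18.6 and 14.5 CPM in Kir2.1 P4 and 251, 238 and 236 CPM in Kir2.1 P8, a log2 change of 3.90 ± 0.62 (edgeR adjusted p = 0.0015). In wild type it was at 10.004 and 49.0 CPM at P4 and at 39.4, 140.6 and 238 CPM at P8, where the lowest P8 library fell below the higher P4 one. Gnb1 (ENSMUSG00000029064, chr4:155491361-155559269, plus strand), the beta subunit, was already at 529, 605 and 651 CPM in Kir2.1 P4 and reached 1619, 1435 and 1642 CPM in Kir2.1 P8. Its log2 change of 1.40 ± 0.19 was the smallest of the 9 and had the smallest adjusted p (0.000704, edgeR). Among other beta subunits, Gnb2 had a log2 change of 0.01 ± 0.11 in Kir2.1 (edgeR adjusted p = 0.977), and Gnb4 fell by 0.64 ± 0.18 (edgeR adjusted p = 0.0301), a call lost in 5 of the 6 fits without 1 Kir2.1 library, all but the fit lacking Kir2.1 P8 replicate 3. The log2 ratio of Gnat1 to Gnb1 was -8.16 to -6.24 over the 5 P4 libraries and -6.08 to -4.03 over the 6 P8 libraries, so the ages did not overlap on it.

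Among the phosphodiesterase subunits the highest estimate was for Pde6a (ENSMUSG00000024575, chr18:61220315-61289924, plus strand), the catalytic alpha subunit. It held 3.16, 4.76 and 2.89 CPM in Kir2.1 P4 and 184, 136 and 146 CPM in Kir2.1 P8, a log2 change of 5.41 ± 0.90 (edgeR adjusted p = 0.00192). Wild-type P4 was split between 1.03 and 23.1 CPM, and wild-type P8 held 19.1, 86.7 and 148 CPM. The partner subunit Pde6b (ENSMUSG00000029491, chr5:108388391-108432397, plus strand), also catalytic, was at 34.04, 60.5 and 43.6 CPM in Kir2.1 P4 and 685, 829 and 699 CPM in Kir2.1 P8, a log2 change of 4.00 ± 0.77 (edgeR adjusted p = 0.00435). In wild type it ran from 16.5 to 127 CPM at P4 and was at 79.1, 387 and 726 CPM at P8. Pde6g (ENSMUSG00000025386, chr11:120447605-120453500, minus strand), the inhibitory gamma subunit that transducin displaces, rose by 2.94 ± 0.55 (edgeR adjusted p = 0.00393), from 21.0, 42.1 and 31.6 CPM to 263, 222 and 244 CPM.

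Ratios of the phosphodiesterase subunits were also taken within each library. As log2 of CPM with a prior count of 2, Pde6a relative to Pde6b was at -3.84 to -3.36 in the P4 libraries other than wild-type replicate 2, at -2.45 in that library, and at -2.60 to -1.90 in the 6 P8 libraries. Pde6g relative to Pde6b went the other way, from -0.69 to 0.17 in the same 4 P4 libraries to -1.90 to -0.70 at P8, with wild-type P4 replicate 2 at -1.07. These ranges are a description, and they compare each ratio between libraries and not the genes with each other.

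Channel subunits rose by 26.0-fold for Cnga1 (ENSMUSG00000067220, chr5:72603696-72644275, minus strand), which forms a channel by itself, and by 12.3-fold for Cngb1 (ENSMUSG00000031789, chr8:95239045-95306585, minus strand), which modulates it. Cnga1 was at 5.49, 10.2 and 4.72 CPM in Kir2.1 P4 and 185, 175 and 176 CPM in Kir2.1 P8 (log2 change 4.70 ± 0.85, edgeR adjusted p = 0.00322). Cngb1 was at 23.9, 35.2 and 29.8 CPM and then 344, 379 and 371 CPM (log2 change 3.62 ± 0.69, edgeR adjusted p = 0.00415). In wild type, the 2 P4 libraries were far apart for both genes, at 2.99 and 26.6 CPM for Cnga1 and 13.5 and 75.9 CPM for Cngb1. Wild-type P8 replicate 1, at 14.6 CPM of Cnga1 and 41.9 CPM of Cngb1, lay between those 2 values, below replicate 2 (82.1 and 171 CPM) and replicate 3 (176 and 351 CPM).

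Sag (ENSMUSG00000056055, chr1:87803680-87845158, plus strand), which helps to end the light response and is abundant in rods, was at 132, 196 and 131 CPM in Kir2.1 P4 and 1248, 1293 and 1426 CPM in Kir2.1 P8. Its log2 change was 3.11 ± 0.64 (edgeR adjusted p = 0.00619). Wild-type Sag was at 59.8 and 338 CPM at P4 and 220, 726 and 1388 CPM at P8, so that wild-type P8 replicate 1 held less Sag than wild-type P4 replicate 2. That order, P8 replicate 1 below P4 replicate 2, held for all members but Gnat1 (8 of 9), and for 49.8% of all genes.

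In wild type the 9 members were higher at P8 with a median log2 change of 2.24, against 0.03 over all genes, but 0 of 9 passed (edgeR adjusted p from 0.0761 for Gnat1 to 0.151 for Gnb1 and Cngb1). In this comparison 0.803% of genes tested were called higher and 4.39% in either direction. All 9 members had an unadjusted p under 0.05, as did 19.6% of genes, and only Gnat1 had no overlap between the ages, as did 14.2% of genes in the same direction. DESeq2 called 2 members (3.23% of genes called higher), Gnat1 with an adjusted p of 0.0219 and Gngt1 with 0.041. Without wild-type P8 replicate 1, all 9 were called by edgeR at log2 changes of 0.78 (Gnb1) to 3.35 (Gnat1), with a median of 2.67, where 3.13% of genes were called higher. Without wild-type P4 replicate 2, 7 were called (2.31% of genes), all but Gnat1 and Gnb1, the median was 3.80 and Pde6a reached 6.36; the remaining P4 library is then assumed to vary like the other groups. Without both of these libraries, a fit added after seeing the data, all 9 were called (4.24% of genes called higher), from 0.91 for Gnb1 to 6.80 for Pde6a, with a median of 4.25. The other fits without 1 wild-type library called 0 of 9. In these, 3 members had an unadjusted p under 0.05 with P4 replicate 1 left out (median 1.505), 5 with P8 replicate 3 left out (median 1.61) and 9 with P8 replicate 2 left out (median 2.23). Dividing-cell markers summed to 1253 and 3184 CPM in wild-type P4 and 158 to 178 CPM in wild-type P8, and bipolar markers to 223 and 498 CPM and 587 to 1894 CPM; their part in the members' values was not tested.

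**Figure D2:**
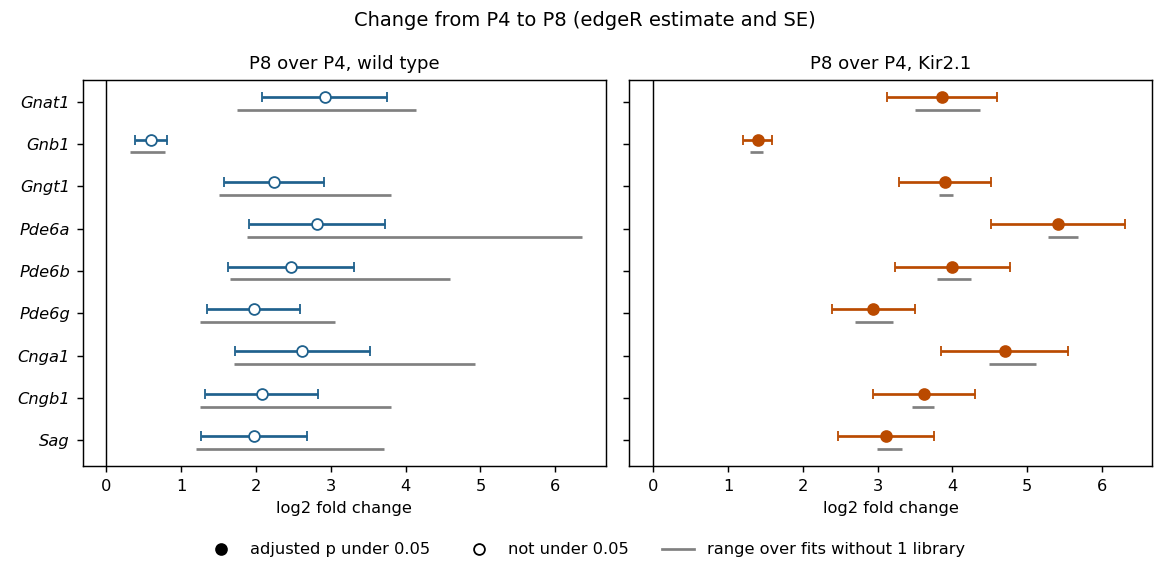
Log2 fold change of P8 over P4 (horizontal axis) for each member in wild type (left) and Kir2.1 (right); points and bars are the edgeR estimate ± SE, filled where the adjusted p was under 0.05, and grey lines span the estimates from fits without 1 library. All 9 Kir2.1 points are filled, from 1.40 for Gnb1 to 5.41 for Pde6a, and the 9 wild-type points are open with longer grey lines.

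The Kir2.1 and wild-type groups were then compared within each age. At P4 the 9 members were lower in Kir2.1 with a median log2 difference of -0.59, against 0.01 over all genes, and 0 of 9 passed in edgeR, as did 0 of 18188 genes (0%). Estimates ran from -1.73 ± 0.93 for Pde6a (edgeR adjusted p = 0.709) to -0.15 ± 0.83 for Gnat1 (0.973), and the groups overlapped for every member, where 14.4% of genes had Kir2.1 below wild type with no overlap. None of the 9 had an unadjusted p under 0.05, against 7.22% of genes, and DESeq2 called 34 genes (0.244%) with no member among them. The P4 direction rested on wild-type replicate 2. Without it 8 of 9 members were higher in Kir2.1, by 0.70 (Gngt1) to 1.81 (Pde6a), with Gnb1 at -0.10, a median of 1.14 and every edgeR adjusted p at 0.925 or above. With wild-type replicate 1 left out instead, 9 of 9 were lower in Kir2.1 with a median of -1.36, 3 had an unadjusted p under 0.05 and none passed. As the plot of levels by group shows, the 3 Kir2.1 P4 libraries lay between the 2 wild-type ones for Gngt1, Pde6a, Pde6b, Pde6g, Cnga1, Cngb1 and Sag. Summed over the members other than Gnb1, the wild-type P4 libraries held 125 and 708 CPM and the Kir2.1 P4 libraries 240.0, 375 and 260.3 CPM. For the ganglion cell markers all 13 estimates at P4 were below 0 in Kir2.1, with a median log2 difference of -1.01 and no overlap for 9 of 13. None of the 13 passed in edgeR, 10 had an unadjusted p under 0.05, and DESeq2 called 1, Isl1 (adjusted p = 0.00392). Without wild-type P4 replicate 2 all 13 were again below 0, with a median of -1.38 and 12 at an unadjusted p under 0.05. The median was smaller, at -0.76 with 4 such genes, once wild-type replicate 1 was left out, and at -0.65 with 3 once Kir2.1 P4 replicate 2 was. For the bipolar cell markers 9 of 10 estimates were below 0, with a median of -2.02 and no overlap for 2 of 10. None of these 10 passed in edgeR, 5 had an unadjusted p under 0.05, and DESeq2 called 2, Trpm1 (-5.77, adjusted p = 0.0033) and Grm6 (-6.86, adjusted p = 0.0468), a channel and a glutamate receptor of ON bipolar cells. Wild-type P4 replicate 2 held 566 counts of Trpm1 and 678 of Grm6, and the other 4 P4 libraries 2 to 20 and 0 to 6. Without it the bipolar median was 0.18, with 7 of 10 above 0. With wild-type replicate 1 left out instead it was -2.72, with 10 of 10 below 0 and 3 passing in edgeR. The sums of both marker lists are given above, and their part in the members' difference was not tested.

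At P8 the 9 members were higher in Kir2.1 with a median log2 difference of 0.80, against 0.00 over all genes, and again 0 of 9 passed, with 0% of genes called by edgeR. Estimates ran from 0.56 ± 0.19 for Gnb1 (edgeR adjusted p = 0.699) to 0.97 ± 0.71 for Cnga1 (0.743), and the groups overlapped for every member, where 5.5% of genes had Kir2.1 above wild type with no overlap. Gnb1 alone had an unadjusted p under 0.05, a share of 1 in 9 beside 6.82% of all genes, and DESeq2 called 3 genes (0.0165%), none of them a member. Wild-type replicate 3 lay inside the range of the 3 Kir2.1 libraries for 8 of 9 members and above it for Pde6g (275 against 222 to 263 CPM), and replicates 1 and 2 lay below every Kir2.1 library for 9 of 9. For comparison, 53.5% of all genes had replicate 3 inside the Kir2.1 range, and 17.7% had replicates 1 and 2 below it. Wild-type P8 libraries thus spread 1.92-fold for Gnb1 to 12.1-fold for Cnga1 between the highest and the lowest, and Kir2.1 P8 libraries 1.06-fold for Cnga1 to 1.92-fold for Gnat1.

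Leaving out 1 wild-type library changed the size of the P8 difference and not its direction. Without replicate 1 the log2 differences were 0.23 (Pde6g) to 0.48 (Cngb1), with a median of 0.36 and every edgeR adjusted p at 1. Without replicate 3 they were 0.84 (Gnb1) to 1.96 (Gnat1), with a median of 1.55, and Gnb1 alone passed (edgeR adjusted p = 0.0351), where 0.538% of genes were called higher. The sum over the members other than Gnb1 was 473, 1758 and 3391 CPM in wild-type P8 and 3250, 3320 and 3378 CPM in Kir2.1 P8. Amacrine and horizontal cell markers moved the opposite way across the wild-type libraries, at a summed 3043, 2095 and 1079 CPM, and were at 1518, 884 and 1591 CPM in Kir2.1; their part in the members' difference was not tested.

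**Figure D3:**
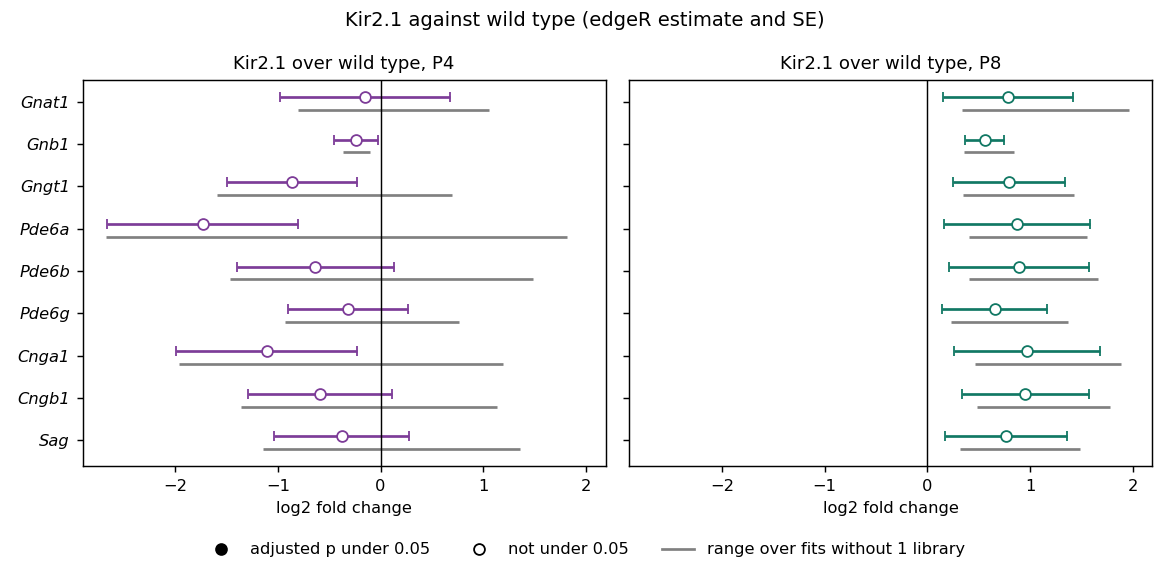
Horizontal axis, log2 of the Kir2.1 over the wild-type level for each member at P4 (left) and P8 (right); points and bars are the edgeR estimate ± SE, all open because no adjusted p was under 0.05, and grey lines span the estimates from fits without 1 library. At P4 the grey lines cross 0 for 8 of 9 members, and at P8 all 9 lines lie above 0.

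The Kir2.1 difference at P8 minus that at P4 was above 0 for 9 of 9 members, from 0.80 ± 0.29 (Gnb1) to 2.60 ± 1.17 (Pde6a) with a median of 1.53, and every edgeR adjusted p was 1, with 0% of genes called. Gnb1 and Pde6a had an unadjusted p under 0.05 (0.0162 and 0.0456), as did 3.09% of genes, and DESeq2 also called 0 genes. The members' calls above were the same with another filter for low counts, a mean of at least 1 CPM, but changed with no filter. When every gene with a count was tested, 5 of 9 members passed as lower at P4 (0.818% of genes), 9 of 9 as higher at P8 (0.632%), 8 of 9 for the difference between the ages (0.334% of genes above 0) and 9 of 9 as higher with age in wild type (2.33%), while the log2 fold changes stayed within 0.01 of those above. The cause of these smaller p-values was not tested. This difference between ages uses the same libraries as both genotype comparisons. Without wild-type P4 replicate 2, 7 of 9 values were below 0, down to -0.94 for Pde6a, with Gnb1 at 0.66, Gngt1 at 0.09 and a median of -0.23. Without wild-type P8 replicate 1 the median was 1.03, with 9 of 9 above 0, and with neither in the fit it was -0.73, with Gnb1 alone above 0. Leaving out wild-type P4 replicate 1 or P8 replicate 3 gave a median of 2.31 or 2.29, with 7 or 9 members at an unadjusted p under 0.05 and none passing.

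In the authors' deposited table for P4, 0 of 9 members were above 0, and 2 passed an adjusted p of 0.05: Pde6b at a log2 difference of -1.10 (adjusted p = 0.00444) and Cngb1 at -1.09 (adjusted p = 0.013). That table called 1.09% of its genes lower. In the edgeR fit of all 11 libraries Pde6b was at -0.64 and Cngb1 at -0.59. The P4 median over the members was -0.93 in the authors' deposited table and -0.59 in that fit. Without wild-type P4 replicate 1 or 2 the edgeR median was -1.36 or 1.14. In the authors' deposited table for P8, 9 of 9 members were above 0 and 2 passed: Gnat1 at 2.05 (adjusted p = 1.99e-07) and Gnb1 at 0.83 (adjusted p = 6.93e-05), where 3.25% of genes were called higher. The P8 median over the members was 1.54 in the authors' deposited table and 0.80 in the edgeR fit of all 11 libraries. Without wild-type P8 replicate 3 the edgeR median was 1.55, and the largest gap between a member's value there and in the authors' deposited table was 0.15 (Cnga1). Which libraries entered the authors' deposited tables is not stated in the sources used here.

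Rod transcription factors were set against the members within each library, so that a ratio does not depend on library scaling. Nrl, the factor that commits precursors to the rod fate, was at 26.5 and 72.2 CPM in wild-type P4 and 46.7, 72.5 and 49.0 CPM in Kir2.1 P4. The later levels were 47.3, 159 and 455 CPM in wild type and 419, 409 and 414 CPM in Kir2.1. Wild-type P8 replicate 1 held a level of Nrl within the P4 range, while its members stood above those of most P4 libraries.

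Relative to Nrl, the log2 level of Pde6a was -4.47 to -3.81 in 4 P4 libraries, -1.64 in wild-type P4 replicate 2 and -1.62 to -0.87 in the 6 P8 libraries. Pde6b relative to Nrl was at -0.68 to -0.17, 0.81 and 0.67 to 1.28 in the same order. For 1 of 9 members, Pde6a, all 6 P8 libraries had a higher ratio to Nrl than all 5 P4 libraries; without wild-type P4 replicate 2 this was so for 7 of 9. Wild-type P4 replicate 2 was above those 4 P4 libraries for 8 of 9 members. The ratio of Gnb1 to Nrl instead ran from 3.06 to 4.58 at P4 and from 1.67 to 3.99 at P8. With Nr2e3, the factor that represses cone genes in rods, in place of Nrl, the ages were separate for 4 of 9 members over all libraries and for 7 without wild-type P4 replicate 2, which was itself above the other P4 libraries for 6. With Crx, which acts in rods and cones, these counts were 3, 8 and 8 of 9. The counts on these ratios cover the members only, and the share over all genes was not computed. Wild-type P4 replicate 2 was left out because it stood apart in the members themselves.

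Wild-type P8 replicate 1 had no single place on these ratios. Relative to Nrl it was within the range of the other 5 P8 libraries for 4 members (Gngt1, Pde6a, Pde6b and Cngb1), above it for Gnat1, Gnb1, Pde6g and Sag, and below it for Cnga1. Relative to Nr2e3 it was above the other P8 libraries for 8 of 9 members, and relative to Crx it was below them for 6.

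**Figure D4:**
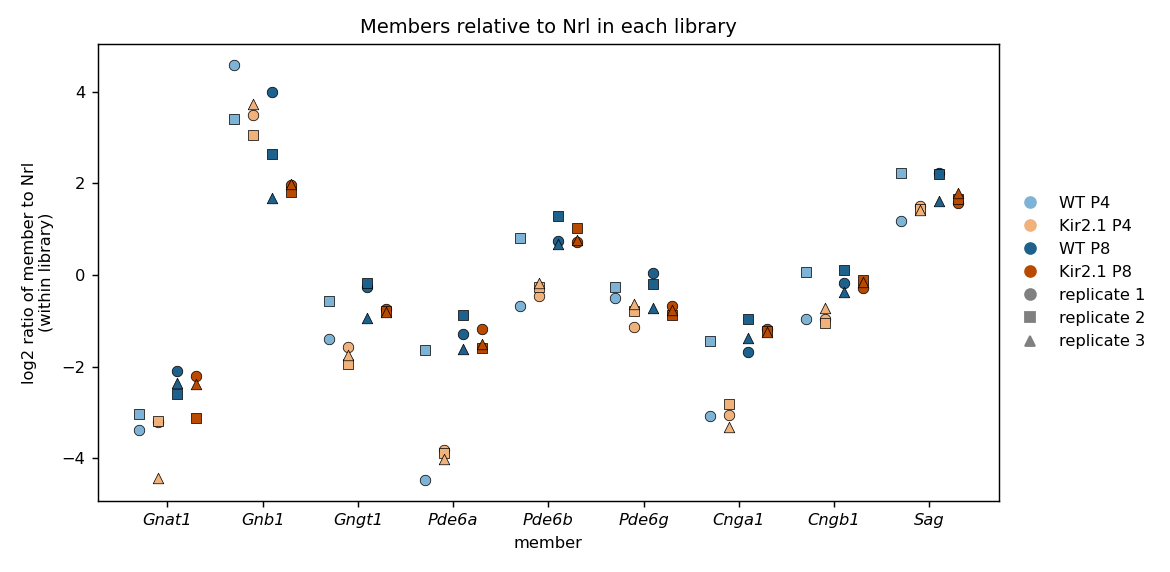
Log2 ratio of each member to Nrl within each library (vertical axis, from CPM with a prior count of 2), by member (horizontal axis); colours give the group and symbols the replicate. For Pde6a, wild-type P4 replicate 2 (-1.64) lies near the 6 P8 libraries (-1.62 to -0.87) and far from the other P4 libraries (-4.47 to -3.81).

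Rods and cones use different genes for the same steps, so 8 of the members were also set against a cone counterpart (all but Pde6a). Kir2.1 P8 libraries had a higher rod-to-cone ratio than all 5 P4 libraries for 7 of the 8, and all 6 P8 libraries did for 1, Gngt1 to Gngt2. No share over all genes was computed beside these counts. Pde6b relative to the cone subunit Pde6c was at a log2 ratio of -0.31 to 0.27 in 4 P4 libraries and 1.07 in wild-type P4 replicate 2. In the wild-type P8 libraries the ratios were 0.13, 1.61 and 4.20, and they were at 3.25 to 3.42 in the Kir2.1 P8 libraries. Gnat1 relative to the cone alpha subunit Gnat2 was at -3.99 to -2.13 over the P4 libraries, at -2.29, -1.12 and 1.79 in wild-type P8 and at -0.02 to 1.05 in Kir2.1 P8. Other pairs went differently in wild type. Sag relative to cone arrestin Arr3 was at 3.81 to 4.67 at P4, at 3.65 and 5.80 in wild-type P8 replicates 2 and 3, below 3.65 in wild-type P8 replicate 1, and at 4.91 to 6.05 in Kir2.1 P8. Gnb1 relative to Gnb3 was at 2.19 to 2.90 at P4, at 2.55, 2.16 and 2.16 in wild-type P8 and at 2.28 to 2.70 in Kir2.1 P8, with the ages overlapping. Over the 8 pairs, wild-type P8 replicate 1 was inside the P4 range for 6, above it for Gngt1 to Gngt2 (-0.83 against at most -0.98) and below it for Sag to Arr3.

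The 10 cone counterparts had median log2 changes with age of 0.53 in Kir2.1 and 0.80 in wild type (3.85 and 2.24 for the members). Of them, 3 rose in Kir2.1 (7.93% of all genes) and 0 in wild type (0.803%). In Kir2.1 these were Arr3, cone arrestin (1.85 ± 0.51, edgeR adjusted p = 0.0266), Gnb3, the cone beta subunit (1.38 ± 0.28, adjusted p = 0.0064), and the cone opsin Opn1mw, whose Kir2.1 P4 libraries held at most 1 count and for which no fold is given. Leaving out 1 Kir2.1 library in turn gave 1 to 3 calls, with 1 in the fits lacking any Kir2.1 P4 library or Kir2.1 P8 replicate 2, and 2 in the fit lacking Kir2.1 P8 replicate 3. These Kir2.1 fits called 1764 to 2169 genes in either direction. Fits of the gene lists with libraries left out, here and below, were chosen after seeing the data. Shares of all genes called in the wild-type fits, where taken, are given with the members. Between genotypes 0 of 10 passed at either age. The median log2 difference was 0.10 at P4 (8 above and 2 below 0) and 0.08 at P8 (5 above and 5 below), with Cnga3 (0.41) and Opn1mw (-2.99, on few counts) at the ends at P4 and Opn1mw (0.56) and Arr3 (-0.40) at P8. Without wild-type P4 replicate 2 the P4 median was 0.60, with 10 of 10 above 0, and with replicate 1 left out instead it was -0.15, with 4 above. Leaving out wild-type P8 replicate 1, 2 or 3 gave a P8 median of 0.04, 0.33 or -0.15, with no call in edgeR. In the authors' deposited table for P4, 2 of 10 were above 0, with a median of -0.21 and 0 called. At P8 4 of 10 were above 0, with a median of -0.14. That table called 1 of the 10, Gnb3, higher at 0.64, where 3.25% of genes were called higher. With age in wild type, 1 of 10 passed once wild-type P8 replicate 1 was left out, 2 once wild-type P4 replicate 2 was, and 3 with neither in the fit. With wild-type P4 replicate 1 or P8 replicate 2 left out none passed, and with P8 replicate 3 left out 1 did.

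Over 15 other genes of the rod cascade the median log2 change with age in Kir2.1 was 2.47. Of these, 13 rose (7.93% of all genes). Among these were the rod sodium-calcium-potassium exchanger Slc24a1 (5.20 ± 1.07), the guanylate cyclase Gucy2f (4.13 ± 0.81), which remakes cGMP, and Grk1, a kinase that acts in shutting off the response (3.55 ± 0.59), with edgeR adjusted p from 0.002 to 0.0062. The 2 that did not pass were the cyclase activators Guca1a (0.54 ± 0.34) and Guca1b (1.31 ± 0.50). In wild type 1 of 15 rose (0.803% of all genes), Gnb5, a partner of Rgs9 in shutting off transducin (1.10 ± 0.26, edgeR adjusted p = 0.0338). All 15 estimates were above 0, with a median of 1.69. Leaving out wild-type P8 replicate 1, 11 of 15 passed with a median of 2.03. Leaving out wild-type P4 replicate 2, 10 passed with a median of 2.85, and with neither in the fit 12 passed with a median of 3.18. Leaving out wild-type P4 replicate 1 or P8 replicate 2 gave 0 calls, with a median of 1.04 or 1.596, and leaving out P8 replicate 3 gave 1 call and 1.29.

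Between genotypes, 0 of 15 passed at P4 (3 above and 12 below 0, median -0.19, from Slc24a1 at -1.43 to Rgs9 at 0.25) and 0 of 15 at P8 (12 above and 3 below, median 0.61, from Guca1a at -0.21 to Slc24a1 at 1.29). The P8 groups did not overlap for 3 of the 15, Grk1, Gucy2e and Slc24a1, all higher in Kir2.1, as was so for 5.5% of genes. The P4 direction of this list rested on wild-type replicate 2, as it did for the members: the list summed to 381 and 1029 CPM in wild-type P4 and to 506 to 714 CPM in Kir2.1 P4. Without that library 14 of 15 were above 0, with a median of 0.88 and none passing in edgeR, and with replicate 1 left out instead 15 of 15 were below 0, with a median of -0.70 and none passing. The median was -0.01 with Kir2.1 P4 replicate 1 left out and -0.36 with Kir2.1 P4 replicate 2 left out. Leaving out wild-type P8 replicate 1 or 3 gave a P8 median of 0.23 or 1.03, again with none passing. In the authors' deposited table for P4, 0 of 15 were above 0, with a median of -0.50. It called 2 lower, Grk1 and Gnb5 (1.09% of its genes). At P8 12 of 15 were above 0, with a median of 1.05 and 2 called higher, Rgs9 and Aipl1 (3.25% of genes).

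Rod fate factors (8 genes) rose in Kir2.1 in 6 cases (7.93% of all genes), with a median log2 change of 1.48, beside the members' 3.85. The largest changes were in Nrl (2.88 ± 0.62, edgeR adjusted p = 0.00804), Nr2e3 (2.63 ± 0.70, adjusted p = 0.0244), Samd7 (2.24 ± 0.66, adjusted p = 0.0363) and Crx (1.77 ± 0.44, adjusted p = 0.016). Otx2 (0.87 ± 0.39) and Prdm1 (0.18 ± 0.39) did not pass. Leaving out 1 Kir2.1 library in turn gave 2 to 4 calls, with 2 in the fits lacking Kir2.1 P4 replicate 1 or 3. In wild type 0 of 8 passed (0.803% of all genes were called higher), with a median of 1.26. Leaving out wild-type P8 replicate 1 gave 7 of 8 calls and a median of 1.59, leaving out wild-type P4 replicate 2 gave 0 calls and 1.46, and leaving out both gave 6 calls and 1.78. Leaving out any other wild-type library gave 0 calls, with medians down to 0.65 (P8 replicate 3). Between genotypes 0 of 8 passed; all 8 estimates were above 0 at P4 (median 0.44, Mef2d 0.10 to Prdm1 0.82), where the members were below 0, and at P8 (median 0.81, Mef2d 0.34 to Nr2e3 0.92). Without wild-type P4 replicate 2 the P4 median was 0.79, with 8 of 8 above 0, and with replicate 1 left out instead it was 0.23, with 5 above. It was 0.29 with Kir2.1 P4 replicate 2 left out, with 7 above. Leaving out wild-type P8 replicate 1 gave a P8 median of 0.35, and leaving out replicate 3 gave 1.46, where 1 of 8 passed, Neurod1 (1.06, edgeR adjusted p = 0.0261). At P4 5 of 8 factors were above 0 in the authors' deposited table, all but Nrl, Nr2e3 and Mef2d, and none passed. At P8 the authors' deposited table had 8 of 8 above 0 and called 5 higher (Nrl, Otx2, Neurod1, Samd7 and Mef2d), in a table with 3.25% of genes called higher.

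**Figure D5:**
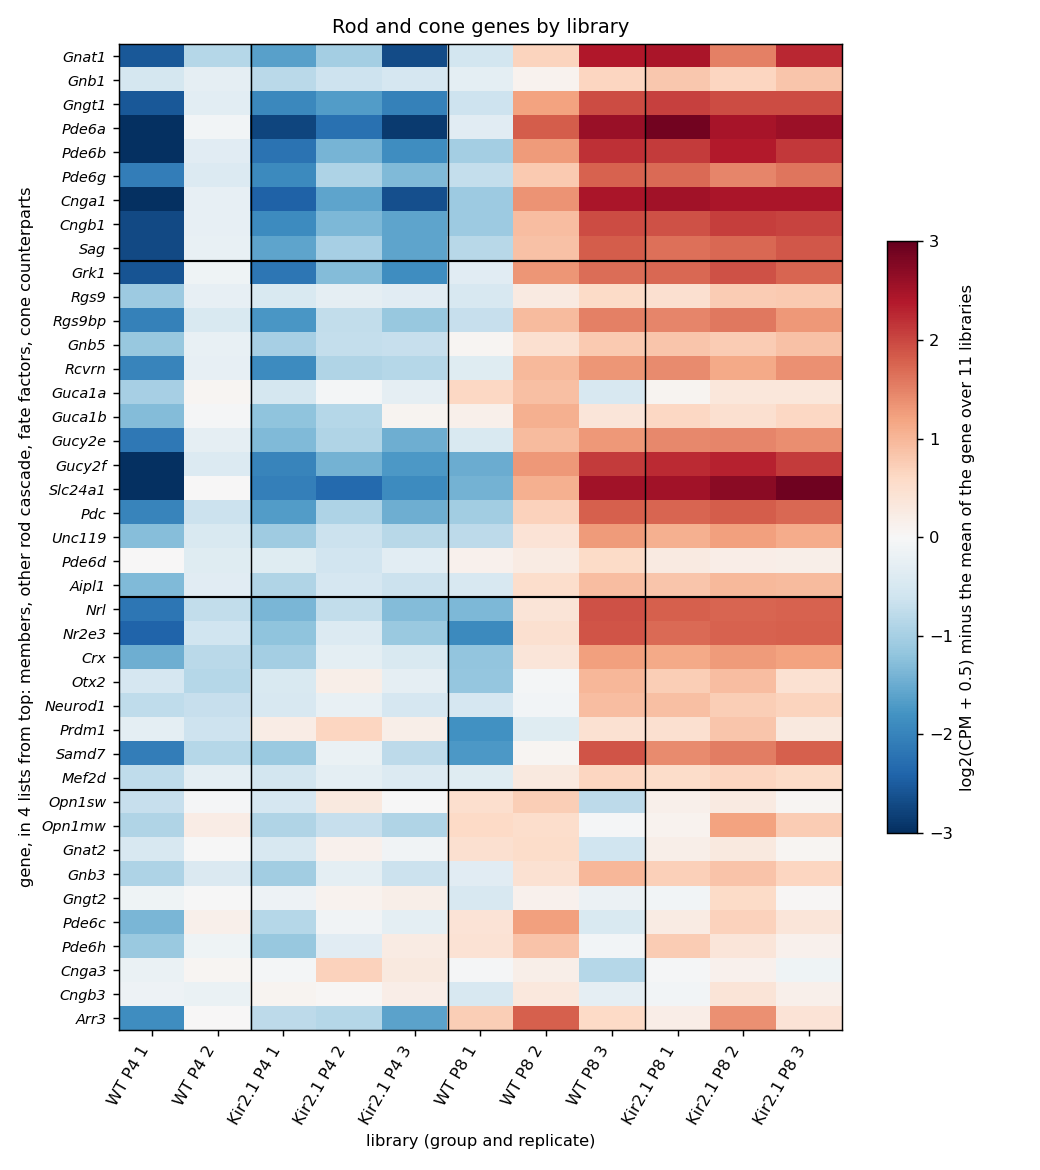
Log2(CPM + 0.5) of each gene minus its mean over the 11 libraries, from blue (lower) to red (higher) and capped at 3 either way, for the 9 members, 14 other rod cascade genes, 8 rod fate factors and 10 cone counterparts; columns are libraries. Wild-type P4 replicate 2 is near the gene mean for members while the other P4 libraries are blue, and wild-type P8 replicate 1 is pale blue where the other P8 libraries are red.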

How the data were processed

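RNA-seq count files for 11 mouse retinal libraries were used. The authors deposited whole-number counts per Ensembl gene; per the submitters' processing notes, STAR 2.5.0c, HTSeq 0.6.1, cutadapt 1.18, SAMtools 1.9, bedtools 2.26.0, DESeq2 and build mm10 were used, and strand setting and annotation are not given in the sources used here. Records outside genes (74.57% to 79.83% of a library) were left out. Per the file headers, the authors' deposited tables hold a mean normalized count (a signal), a log2 fold change with its SE, a score (their ratio), a p-value and its adjusted form; they are quoted as the authors' own.

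Groups came from the titles. In R 4.3.3, edgeR 4.0.16 was run on the counts with filterByExpr, TMM scaling (factors 0.964 to 1.05) and 4 group means over all 11 libraries (7 residual degrees of freedom, common biological coefficient of variation 0.247). An adjusted p with no tool named is from its quasi-likelihood test, adjusted by Benjamini-Hochberg over 18188 genes, with a threshold of 0.05. SE is the log2 fold change over the square root of F. Gene lengths and positions are from GENCODE M21 (GRCm38), looked up by Ensembl ID. The count step was tested on simulated data. DESeq2 1.42.0, other filters and scalings, a replicate block and fits without a library were alternatives.

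The members and gene lists were chosen with earlier results of these data known. All members are named in each comparison; from other lists, the genes passing with the largest changes (up to 4), or otherwise the highest and lowest. A gene that the rule also names is not reported here. Gnb2 and Gnb4, Gucy2e, Guca1a, Guca1b, Otx2 and Prdm1 outside that rule were named after their values were seen.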

Additional observations from a re-analysis of the deposited data

How the results depend on the processing

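Precision was limited by 2 or 3 libraries in a group: the SE of the P8 genotype difference was 0.19 to 0.71 for the members and 0.26 at the median of all genes. All 9 members rose with age in Kir2.1 under every alternative run. Genes called there ranged from 1764 to 2169 without 1 library (3029 with all). Where a fit leaves a group with 1 library, that library is assumed to vary like the other groups.

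DESeq2 called 34 genes at P4, 3 at P8 and 1545 with age in wild type (798 in edgeR), with 2 members in the last. Without a filter, 36534 genes were tested and 339, 447, 136 and 2058 passed at P4, at P8, for the difference and with age in wild type, with 5, 9, 8 and 9 members; the cause was not tested. The wild-type age comparison called 113 genes when only its own libraries were fitted, and 1845, with 9 members, without both wild-type P4 replicate 2 and wild-type P8 replicate 1, an alternative chosen after seeing the data.

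Leaving out 1 library in turn gave 0 to 6 genes at P4 (0 members), 0 to 219 at P8 (0 to 1 member), 0 to 1 for the difference (0 members) and 163 to 1339 with age in wild type (0 to 9 members; 163 without P4 replicate 1). Log2 differences at P4 then ranged from -0.81 to 1.06 for Gnat1, -1.60 to 0.70 for Gngt1, -2.67 to 1.81 for Pde6a, -1.46 to 1.48 for Pde6b, -0.93 to 0.76 for Pde6g, -1.96 to 1.19 for Cnga1, -1.36 to 1.14 for Cngb1 and -1.15 to 1.36 for Sag. The difference between ages ranged from -0.28 to 2.11 for Gnat1, 0.09 to 2.39 for Gngt1, -0.94 to 3.54 for Pde6a, -0.59 to 2.35 for Pde6b, -0.11 to 1.69 for Pde6g, -0.23 to 2.99 for Cnga1, -0.18 to 2.37 for Cngb1 and -0.59 to 1.91 for Sag. Without both libraries named above it was 0.46 for Gnb1, -0.73 for Gnat1, -0.35 for Gngt1, -1.41 for Pde6a, -1.08 for Pde6b, -0.53 for Pde6g, -0.74 for Cnga1, -0.66 for Cngb1 and -1.04 for Sag.

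Same-numbered libraries share a replicate number in the titles. Their deviations correlated at 0.13 and 0.07 at P4 and at 0.09, -0.01 and -0.08 at P8. At P8 not every library correlated best with its own number. At P4 the 2 wild-type libraries gave values of equal size and opposite sign, which are not separate results. The check therefore cannot show whether same-numbered libraries share an origin. The replicate block gave 0, 0 and 0 genes for the genotype comparisons and their difference, 558 with age in wild type and 2928 in Kir2.1, and changed no member's call.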

Other observations

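The genes whose pattern over the 11 libraries was most like the members' mean (Pearson r over log2 CPM, 15985 other genes with a mean of at least 1 CPM) included rod outer segment genes. They were Gucy2e, a guanylate cyclase (r = 0.996), Kcnv2, a photoreceptor potassium channel subunit (0.996), Abca4, the retinoid transporter of outer segments (0.996), the predicted gene Gm37583 (0.995), Prcd (0.995), Rd3, a regulator of guanylate cyclase (0.994), and Prph2, a disc rim protein (0.994). The libraries share an age difference, so such values are a description only.

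Among the members, r with the mean of the other 8 was lowest for Gnb1 (0.952), then Gnat1 (0.970) and Pde6a (0.986), and was 0.993 to 0.998 for the remaining 6. Gnat1 had the lowest level per kilobase in Kir2.1 P8 and the widest spread between libraries there (1.92-fold). Its low value was that of Kir2.1 P8 replicate 2 (47.2 CPM, against 90.5 and 79.4 in replicates 1 and 3). That library also stood out in its pigment epithelium markers and its number of genes with a count.

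The SD of log2 CPM within wild-type P4 was above the median over 18188 genes (0.22) for 8 of the 9 members, from 1.19 for Pde6g to 3.02 for Pde6a, and below it for Gnb1 (0.18).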
